A study of Homo sapiens with 12 samples.

Results

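The 7 genes described here are PARP9, DTX3L, PARP14, PARP12 and PARP10, which are known as interferon-induced genes of ADP-ribosylation, together with PARP1 and PARP2, the DNA-damage members of the same enzyme family, added for contrast. They were chosen by symbol, as 7 of the 27685 genes in the deposited count table, and all 7 passed the filter on low counts. The cells were U251, an established human glioblastoma line used at passages 14 to 18, with stable expression of a short hairpin RNA, which was a control (shCTRL) or was directed at INCA1, a long noncoding RNA (shINCA1). Each line was left untreated or was stimulated with interferon gamma (IFNγ) for 24 h, and poly(A) RNA was sequenced from 3 libraries in each of the 4 groups. All 4 groups carry a hairpin, and as far as the labels tell each hairpin is 1 line, so a difference between shINCA1 and shCTRL cannot be told apart from any other difference between these 2 lines. The labels name no separate cultures behind the 3 libraries of a group, so p-values measure only the spread between these libraries, which may be technical.

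ADP-ribosylation is the transfer of ADP-ribose from NAD+ to a protein or nucleic acid. PARP1 and PARP2 build long poly(ADP-ribose) chains at broken DNA, whereas PARP10, PARP12 and PARP14 add single ADP-ribose units. PARP9 has little or no transferase activity of its own and works in a complex with DTX3L, an E3 ubiquitin ligase of the Deltex family. Several of these proteins carry macrodomains, which bind ADP-ribose, and their genes are commonly induced by interferons in many cell types. IFNγ signals through the kinases JAK1 and JAK2, and its target genes are commonly marked by a palindrome known as the gamma-activated site or by the interferon-stimulated response element, which is bound by the IRF factors and by complexes that hold IRF9.

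The promoters of 6 of the 7 genes are shown first. That of PARP10 was not used, so the contrast does not cover all 5 induced genes. Those of PARP9 and DTX3L (1 shared match), PARP14 and PARP12 hold letters of an interferon-stimulated response element at a start site. Those of PARP1 and PARP2 do not. Each line below gives the strand of the gene named, 5′ to 3′, from the RefSeq promoter table on GRCh38.p14, with matches to GAAANNGAAA or TTCNNNGAA (searched on both strands) in capitals. PARP9 and DTX3L are transcribed away from each other, and 37 bases lie between their nearer start sites, so 1 window serves both. It is chr3:122564291-122564347 on the plus strand. The PARP14 window is chr3:122680739-122680838 on the plus strand, PARP12 is chr7:140062952-140063051 on the minus strand, PARP1 is chr1:226408094-226408193 on the minus strand and PARP2 is chr14:20343535-20343634 on the plus strand.
DTX3L and PARP9: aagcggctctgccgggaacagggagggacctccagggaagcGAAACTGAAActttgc
PARP14: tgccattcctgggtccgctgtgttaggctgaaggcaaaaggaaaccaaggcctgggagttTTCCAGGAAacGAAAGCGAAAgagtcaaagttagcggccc
PARP12: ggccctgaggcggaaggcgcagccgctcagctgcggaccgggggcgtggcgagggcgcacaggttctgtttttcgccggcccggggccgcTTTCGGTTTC
PARP1: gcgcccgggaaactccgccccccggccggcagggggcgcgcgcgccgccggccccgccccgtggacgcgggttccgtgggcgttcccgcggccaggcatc
PARP2: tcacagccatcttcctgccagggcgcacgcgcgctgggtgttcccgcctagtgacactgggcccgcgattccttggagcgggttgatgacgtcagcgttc

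In windows of 300 bases, from 250 before a start to 50 after it, GAAANNGAAA began at position -6 of DTX3L, -29 of PARP14 and -10 of PARP12, where -1 is the base before the start. The letters near DTX3L are also those of PARP9, where they read TTTCAGTTTC from position -41 of the nearer of its 2 listed starts. The farther PARP9 start, PARP1 and PARP2 held no match to GAAANNGAAA in their windows. TTCNNNGAA matched in PARP14 from position -40, ending 2 bases before the other motif, and in PARP2 from position -154, outside the stretch printed. Over 35116 RefSeq promoter windows of this length, GAAANNGAAA matched in 3.57% and TTCNNNGAA in 7.66%. Counted by gene, 4.05% of the 12072 tested genes with a window held GAAANNGAAA and 8.7% held TTCNNNGAA. Among the 147 genes with a window that rose at least 1 on the log2 scale with IFNγ in both lines, 59 (40.1%) held the former and 33 (22.4%) the latter. These 147 genes were chosen by their response in these same data and include PARP9, DTX3L, PARP14 and PARP12. Their shares are therefore a description and no separate test. A match is a description of the letters and was not tested as a binding site, and the promoter of PARP10 was not used here.

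The 12 libraries held 46525032 to 66242859 estimated counts, and log-scale correlations between libraries of a group were 0.983 to 0.987. Levels are given in CPM, the usual unit of counts relative to library size, with library sizes adjusted by the trimmed mean of M-values (TMM). Of 15769 genes tested, 17.2% passed an adjusted p of 0.05 with IFNγ in shCTRL and 9.08% in shINCA1, against 56.9% between the untreated lines and 58.9% between the lines with IFNγ. VIM (1779 to 2631 CPM), CD44, SOX2 and SOX9 were present in all libraries, as background for a glioma line, while the astrocyte markers GFAP (at most 1.76 CPM) and S100B (at most 2.95) were low. Of 8 immune cell markers, CD3E, AIF1 and CD2 were among those at 0 in all 12 libraries, and the list's sum of 9.83 to 14.5 CPM was mostly CD68. The summed level of 8 endothelial and epithelial markers was 99.8 to 104 CPM in shCTRL and 251 to 286 CPM in shINCA1, mostly KRT18. NES was at 112 to 142 CPM in shCTRL and 26.9 to 35.6 CPM in shINCA1. S100B (-2.88 ± 0.39 untreated, log2) and GFAP (-2.18 ± 0.40) were also lower in shINCA1. The other markers of that list went both ways. With IFNγ CD44 (0.53, log2) and SOX9 (0.30) were higher in shINCA1, and VIM (-0.42) and SOX2 (-0.29) were lower. These markers moved with the line, and their part in the differences between lines below was not tested. The symbol INCA1 in the table is that of a protein-coding gene, so the depletion of the targeted RNA was not checked here.

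All 5 interferon-induced genes rose with IFNγ in both lines, by 2.13 to 3.62 on the log2 scale in shCTRL and by 2.20 to 4.14 in shINCA1. Genes called higher made up 9.72% of all tested genes in shCTRL and 6.13% in shINCA1. The median of the 5 changes was 3.03 in shCTRL and 3.82 in shINCA1, beside -0.01 and 0.00 over all tested genes. PARP1 and PARP2 did not pass the test with IFNγ in either line, in edgeR or DESeq2, though PARP1 did at an unadjusted p below 0.05. The 5 induced genes were all lower in shINCA1 than in shCTRL, untreated and with IFNγ, where the genes called lower made up 29.5% and 30.2% of all tested genes. Libraries of the groups compared did not overlap for any of the 5 in these 4 comparisons, as held for 16.5% and 13.5% of all tested genes in the direction of a rise with IFNγ (shCTRL and shINCA1) and for 32.4% and 33.8% in the direction of a lower level in shINCA1 (untreated and with IFNγ). In these bulk libraries fewer cells expressing a gene and less RNA per cell cannot be told apart.

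**Figure D1:**
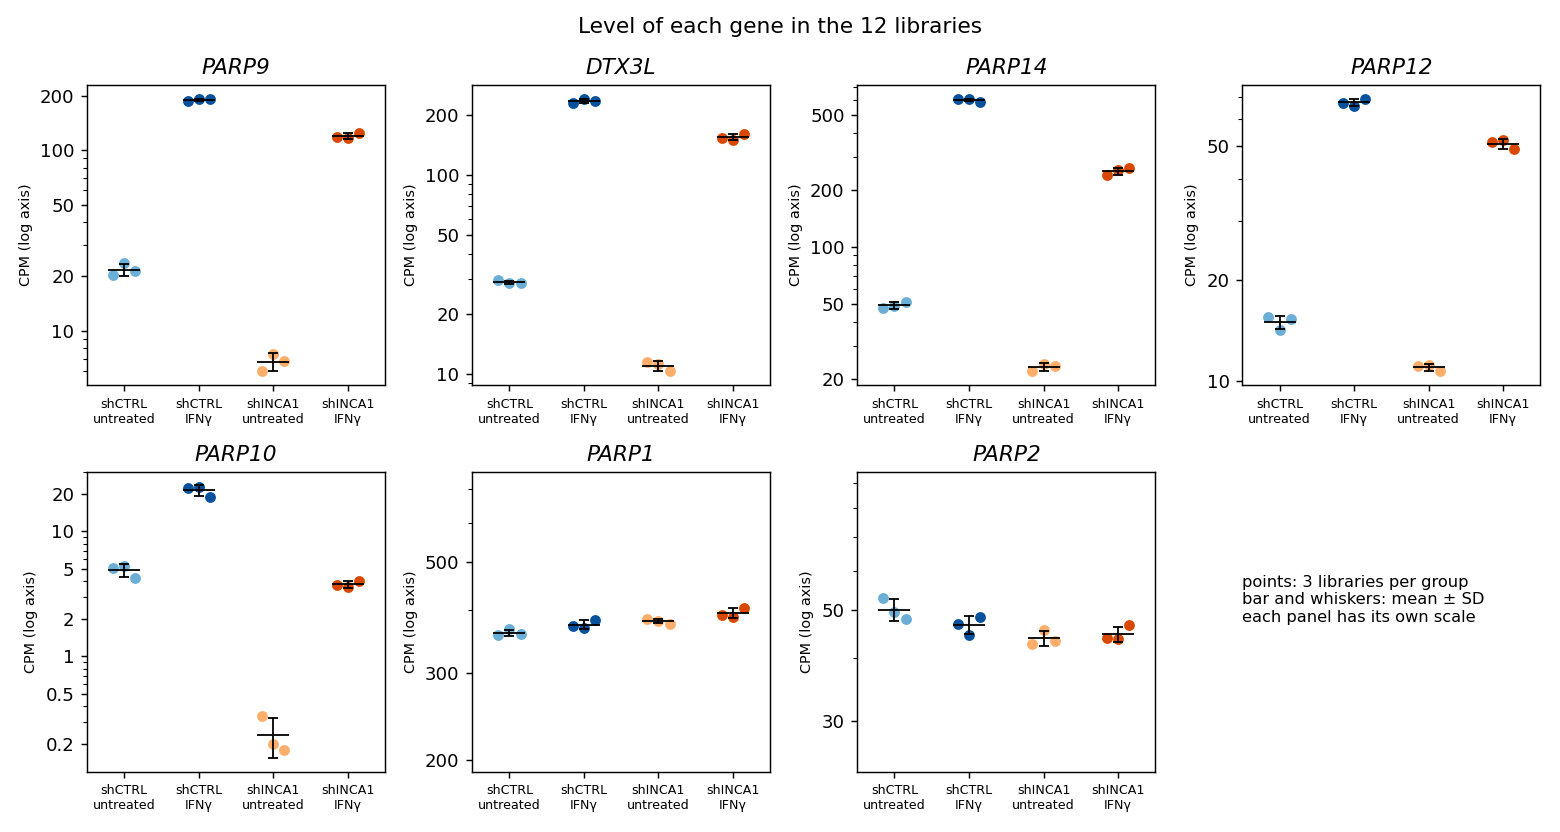
Level of each gene in CPM (log axis, its own scale in each panel) in the 12 libraries by group, with points for libraries, a bar for the mean and whiskers for the SD. In the panels of PARP9, DTX3L, PARP14, PARP12 and PARP10 the 4 groups are separate, and PARP10 is the gene whose IFNγ-treated shINCA1 libraries lie below the untreated shCTRL libraries. PARP1 and PARP2 stay between 357 and 405 CPM and between 42.7 and 52.9 CPM.

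PARP9, the macrodomain partner of DTX3L, stood at 20.4, 23.7 and 21.4 CPM in untreated shCTRL and at 186, 192 and 191 CPM with IFNγ. In shINCA1 it stood at 5.97, 7.48 and 6.85 CPM untreated and at 118, 117 and 124 CPM with IFNγ. No 2 of the 4 groups overlapped, and untreated shINCA1 was the lowest. The rise with IFNγ was 3.12 ± 0.07 on the log2 scale (SE, 8.70-fold, edgeR adjusted p = 2.59e-11) in shCTRL. It was 4.14 ± 0.08 (17.6-fold, adjusted p = 4.13e-12) in shINCA1. Between the lines PARP9 was lower in shINCA1 by 3.22-fold untreated (log2 -1.69 ± 0.07, adjusted p = 3.12e-09) and by 1.59-fold with IFNγ (-0.67 ± 0.07, adjusted p = 3.65e-06).

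DTX3L, the ubiquitin ligase of the pair, followed the same order of groups. It stood at 29.4, 28.4 and 28.6 CPM in untreated shCTRL and at 230.1, 242 and 235 CPM with IFNγ. The shINCA1 libraries held DTX3L at 11.4, 11.2 and 10.3 CPM untreated and at 153, 150.2 and 161 CPM with IFNγ. The libraries of no 2 groups overlapped. DTX3L rose by 3.03 ± 0.04 (SE, log2, 8.17-fold, adjusted p = 3.5e-13) in shCTRL and by 3.82 ± 0.05 (14.1-fold, adjusted p = 8.01e-14) in shINCA1. It was lower in shINCA1 by 2.63-fold untreated (log2 -1.39 ± 0.04, adjusted p = 1.98e-10) and by 1.52-fold with IFNγ (-0.61 ± 0.04, adjusted p = 1.19e-07).

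The counts of PARP9 and DTX3L moved together but not in a fixed proportion. The ratio of the PARP9 count to the DTX3L count within a library, which needs no scaling between libraries, was 0.692, 0.834 and 0.748 in untreated shCTRL and 0.810, 0.793 and 0.816 with IFNγ. In shINCA1 it was 0.524, 0.666 and 0.668 untreated and 0.768, 0.776 and 0.773 with IFNγ. The shCTRL groups overlapped, whereas in shINCA1 every IFNγ-treated library had a higher ratio than every untreated one. Over both lines the log2 ratio was higher with IFNγ by 0.21 (0.09 in shCTRL and 0.33 in shINCA1, two-sided exact permutation within lines, p = 0.02, adjusted over 2 tests p = 0.02). It was lower in shINCA1 by 0.18 (log2 -0.30 untreated and -0.06 with IFNγ, two-sided exact permutation within treatments, p = 0.005, the smallest these permutations can give, adjusted p = 0.01). The difference with IFNγ no longer passed when the replicate number was used as a block (0.21, exact p = 0.0625) or when any of the 3 IFNγ-treated shINCA1 libraries was left out (0.21 in each case, exact permutation p = 0.05). RefSeq places the farther PARP9 start 446 bases beyond the DTX3L start, so the gene spans overlap on opposite strands by 447 bases, and whether the counting used strand was not given in the sources used here. How reads of this overlap were assigned was therefore not tested.

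**Figure D2:**
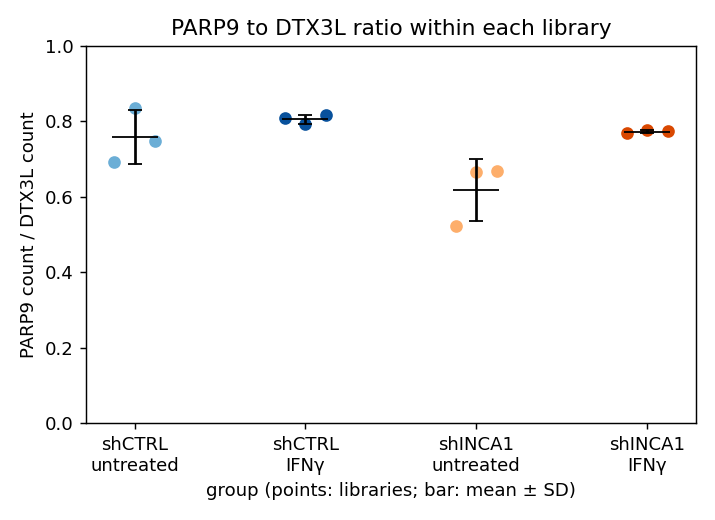
Ratio of the PARP9 count to the DTX3L count (y axis, no unit, from 0) in each library by group, with points for libraries, a bar for the mean and whiskers for the SD. The untreated shINCA1 libraries have the lowest group mean (0.619 ± 0.0826) and the IFNγ-treated groups have the smallest spread (SD of 0.0120 and 0.00400).

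PARP14, a mono-ADP-ribosyltransferase with several macrodomains, had the highest counts of the 5 induced genes. It stood at 47.3, 48.4 and 51.3 CPM in untreated shCTRL and at 606, 608 and 589 CPM with IFNγ. The corresponding shINCA1 levels were 21.9, 24.0 and 23.5 CPM untreated and 239.8, 256 and 260.3 CPM with IFNγ. Again no groups overlapped, and the IFNγ-treated shINCA1 libraries reached less than the IFNγ-treated shCTRL libraries by more than the spread of either. PARP14 rose by 3.62 ± 0.05 (SE, log2, 12.3-fold, adjusted p = 1.62e-13) in shCTRL and by 3.45 ± 0.05 (10.9-fold, adjusted p = 2.24e-13) in shINCA1. It was lower in shINCA1 by 2.12-fold untreated (log2 -1.08 ± 0.04, adjusted p = 1.64e-09) and by 2.38-fold with IFNγ (-1.25 ± 0.04, adjusted p = 4.04e-10).

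PARP12, a mono-ADP-ribosyltransferase with CCCH zinc fingers that is known for antiviral activity, changed less. It stood at 15.5, 14.2 and 15.3 CPM in untreated shCTRL and at 67.1, 65.8 and 69.1 CPM with IFNγ. In shINCA1 it stood at 11.1, 11.2 and 10.7 CPM untreated and at 51.2, 52.2 and 48.8 CPM with IFNγ. The 4 groups were separate, and the lines were nearer to each other than for the other induced genes. PARP12 rose by 2.17 ± 0.05 (SE, log2, 4.49-fold, adjusted p = 1.02e-11) in shCTRL and by 2.20 ± 0.05 (4.60-fold, adjusted p = 1.2e-11) in shINCA1. It was lower in shINCA1 by 1.36-fold untreated (log2 -0.44 ± 0.05, adjusted p = 5.18e-06) and by 1.33-fold with IFNγ (-0.41 ± 0.04, adjusted p = 6.06e-06).

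PARP10, a mono-ADP-ribosyltransferase with an RNA-recognition motif, differed most between the lines. It stood at 5.10, 5.30 and 4.26 CPM in untreated shCTRL and at 22.4, 22.7 and 19.0 CPM with IFNγ. In shINCA1 it stood at 0.331, 0.200 and 0.178 CPM untreated, which are estimated counts of 19, 12 and 12, and at 3.69, 3.61 and 4.04 CPM with IFNγ. All 3 IFNγ-treated shINCA1 libraries were below all 3 untreated shCTRL libraries, so that the induced level in shINCA1 was 77.3% of the uninduced level in shCTRL. For PARP9, DTX3L, PARP14 and PARP12 that share was 548%, 537%, 514% and 339%. PARP10 rose by 2.13 ± 0.12 (SE, log2, 4.37-fold, adjusted p = 1.28e-07) in shCTRL and by 4.01 ± 0.18 (16.1-fold, adjusted p = 1.93e-08) in shINCA1. It was lower in shINCA1 by 20.8-fold untreated (log2 -4.38 ± 0.18, adjusted p = 1.7e-09) and by 5.64-fold with IFNγ (-2.50 ± 0.13, adjusted p = 1e-08). Low values of the table pile up at multiples of 3 (the value 3 occurs 5790 times and 6 occurs 4120 times, against 2186 times for 2 and 1317 times for 4), so the counts of untreated shINCA1 cells may be less precise than their size implies.

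PARP1, the main DNA-damage sensor of the family, varied little. It had the highest CPM of the 7 genes except in IFNγ-treated shCTRL, where PARP14 was higher (589 to 608 CPM). It stood at 357, 366 and 359 CPM in untreated shCTRL and at 372, 368 and 383 CPM with IFNγ. PARP1 in shINCA1 was at 384, 382 and 376 CPM untreated and at 391, 388 and 405 CPM with IFNγ. Treated and untreated libraries did not overlap in either line, but the change with IFNγ was 0.05 ± 0.02 (SE, log2, 95% interval 0.00 to 0.11) in each line and did not pass the test (unadjusted p = 0.0453 and adjusted p = 0.166 in shCTRL, 0.0493 and 0.256 in shINCA1). PARP1 was higher in shINCA1 by 0.08 ± 0.02 both untreated (log2, adjusted p = 0.0153) and with IFNγ (adjusted p = 0.0161), where the genes called higher made up 27.4% and 28.7% of all tested genes. The untreated call was lost without shCTRL library 1 (adjusted p = 0.0716) or shINCA1 library 1 (0.0651). The call with IFNγ was lost without shCTRL library 2 (adjusted p = 0.0546) or shINCA1 library 3 (0.107).

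PARP2, which acts beside PARP1 at DNA breaks, stood at 52.9, 49.5 and 47.9 CPM in untreated shCTRL and at 46.9, 44.6 and 48.4 CPM with IFNγ. PARP2 in shINCA1 was at 42.7, 45.6 and 43.4 CPM untreated and at 43.9, 43.7 and 46.6 CPM with IFNγ. Treated and untreated libraries overlapped in both lines. The change with IFNγ was -0.10 ± 0.05 (SE, log2, 95% interval -0.21 to 0.00, adjusted p = 0.185) in shCTRL and 0.03 ± 0.05 (-0.08 to 0.13, adjusted p = 0.857) in shINCA1. With upper-quartile factors the value in shCTRL was -0.15 and passed (adjusted p = 0.0490), and the value in shINCA1 was -0.01 (adjusted p = 0.976). The untreated lines differed by -0.19 ± 0.05 (adjusted p = 0.00511), and with IFNγ the difference was -0.06 ± 0.05 (95% interval -0.17 to 0.05, adjusted p = 0.314). The median of its 19 nearest tested neighbours between the untreated lines was -0.15, close to the value of PARP2 itself.

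**Figure D3:**
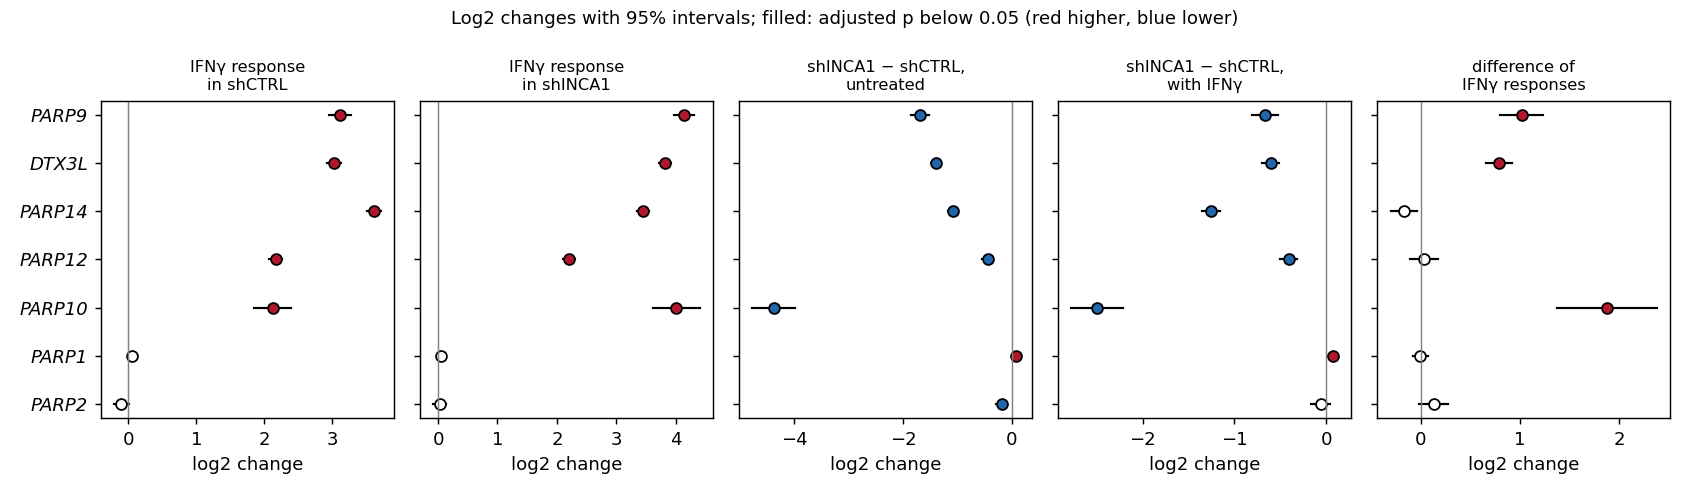
Log2 changes (x axes, with a scale for each panel) of the 7 genes in the 5 comparisons, with 95% intervals, filled where the adjusted p was below 0.05 (red higher, blue lower). The 5 induced genes are filled red with IFNγ in both lines and blue between the lines, and PARP9, DTX3L and PARP10 are filled red in the difference of the responses.

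Read per length of the reference transcript (CPM per kilobase, which assumes the same transcript in all groups), the order of the genes changed with treatment. PARP1 had the highest level in all 4 groups, at 90.7 to 99.2 CPM per kilobase. PARP2 held the next place in both untreated groups (27.4 ± 1.40 in shCTRL and 24.0 ± 0.834 in shINCA1, SD, n = 3) and the fifth with IFNγ. In IFNγ-treated shCTRL PARP14 came next to PARP1 (78.1 ± 1.30), before PARP9 (62.3 ± 0.971) and DTX3L (40.8 ± 1.00). In IFNγ-treated shINCA1 PARP9 came next to PARP1 (39.3 ± 1.38), before PARP14 (32.8 ± 1.40) and DTX3L (26.8 ± 0.949), and the ranges of these 3 genes did not overlap. In untreated shCTRL DTX3L (4.93 to 5.10 over the libraries) and PARP12 (4.70 to 5.13) overlapped and had no order. PARP10 had the lowest level in all 4 groups, from 0.0674 ± 0.0236 in untreated shINCA1 to 6.09 ± 0.580 in IFNγ-treated shCTRL.

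The difference of the 2 responses, tested in the same fit, divided the 5 induced genes. PARP10 had the larger fold response in shINCA1 by 1.88 ± 0.23 (SE, log2, adjusted p = 0.00132), PARP9 by 1.02 ± 0.10 (adjusted p = 0.00027) and DTX3L by 0.79 ± 0.06 (adjusted p = 3.55e-05). These 3 of 5 compare with 0.615% of all tested genes called in that direction, 1.1% in the other and 1.71% in either. PARP14 differed by -0.17 ± 0.06 (95% interval -0.30 to -0.04, adjusted p = 0.272) and PARP12 by 0.04 ± 0.06 (-0.10 to 0.17, adjusted p = 0.914), and neither passed. PARP1 differed by 0.00 ± 0.03 and PARP2 by 0.13 ± 0.07, neither past the test (adjusted p = 1.0 and 0.527). The responses and the differences between lines share their libraries, so a lower untreated level and a larger fold response are not separate observations.

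Counted as CPM gained rather than as fold, the rise with IFNγ was smaller in shINCA1 for all 5 induced genes. PARP9 gained 168 CPM in shCTRL and 113 CPM in shINCA1, which is 67.2% of the former. DTX3L gained 207 and 144 CPM (69.6%), and PARP12 gained 52.4 and 39.7 CPM (75.8%). PARP14 gained 552 and 229 CPM (41.5%) and PARP10 gained 16.5 and 3.54 CPM (21.5%). PARP9, DTX3L and PARP10 thus had the larger fold and the smaller gain in shINCA1, and the 2 scales answer differently which line responded more.

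PARP9, DTX3L and PARP14 lie near each other on chromosome 3, and the genes on either side of them did not pass with IFNγ. Over all tested genes 17.2% passed with IFNγ in shCTRL and 9.08% in shINCA1. The 5 tested genes before PARP9 (CSTA, CCDC58, FAM162A, WDR5B and KPNA1) and the 5 after PARP14 (HSPBAP1, DIRC2, LINC02035, PDIA5 and SEC22A) had changes with IFNγ of -0.40 to 0.18 on the log2 scale, and 0 passed in either line in edgeR or DESeq2 (1 in shCTRL and 0 in shINCA1 at an unadjusted p below 0.05 in edgeR). PARP15, the family member between DTX3L and PARP14, was at 0 in 11 libraries and was not tested. Between the untreated lines 3 of those 10 neighbours passed, beside 56.9% of all tested genes. FAM162A was higher in shINCA1 (0.68 ± 0.06), PDIA5 was lower (-0.51 ± 0.06), and SEC22A was lower (-0.33 ± 0.07). Subtracting the median of the 20 nearest tested genes moved the IFNγ responses of the 5 induced genes by at most 0.09 on the log2 scale. In the other comparisons it moved PARP14 most. Its difference between the lines with IFNγ went from -1.254 to -1.378, and its difference of responses from -0.169 to -0.293. PARP10 lies on chromosome 8, where RefSeq has its span overlap with those of GRINA and SPATC1. GRINA differed by 0.00 and -0.07 between the lines, against -4.38 and -2.50 for PARP10, and SPATC1 was listed at 0.

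**Figure D4:**
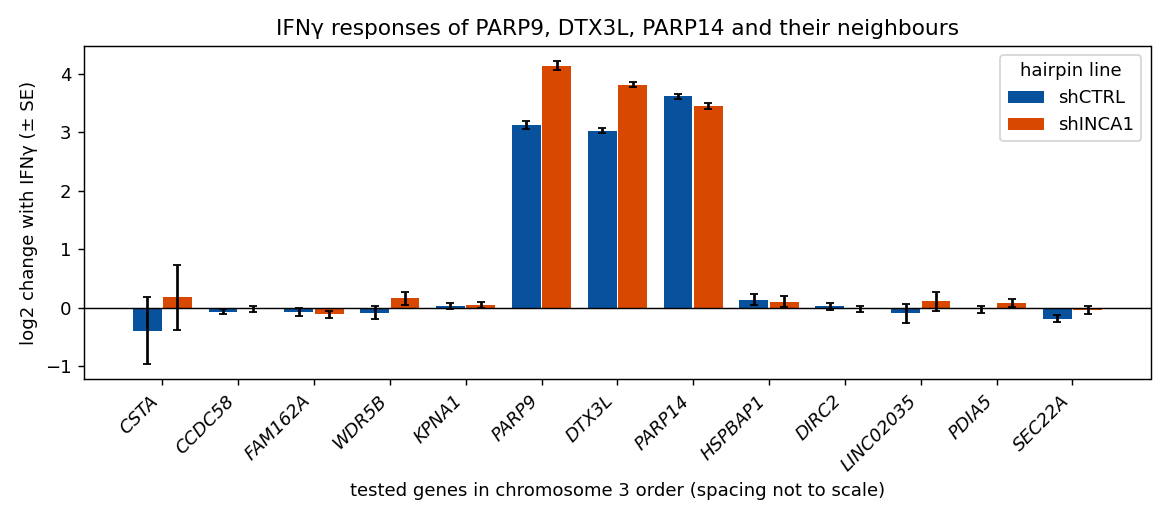
Log2 change with IFNγ (y axis, bars from 0, whiskers for the SE) of PARP9, DTX3L and PARP14 and the 5 tested genes on each side of them, in chromosome order and not to scale, in shCTRL (blue) and shINCA1 (orange). The bars of the 3 genes reach 3.03 to 4.14 and those of the 10 neighbours lie between -0.40 and 0.18.

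Genes of like pattern were found among 12973 genes by the root-mean-square distance between log2 levels over the 12 libraries, each centred on its own mean. The libraries share treatment and line, so the distances describe these 4 groups and no more. DTX3L was the nearest of all genes to PARP9 (0.18), followed by CSF1 (0.27), a macrophage growth factor, and CD274 (0.30), the checkpoint ligand. The nearest genes to DTX3L were CSF1 (0.17), PARP9 (0.18) and PDCD1LG2 (0.25). IFIT2 (0.20) and CSF1 (0.23) were near PARP14. PARP12 was nearest to PML (0.12), C19orf66 (0.14) and IFI35 (0.20), all known as interferon-induced genes. PARP10 had no neighbour as close, with A2M at 0.29, NNMT at 0.50 and TNFRSF14 at 0.50, all lower in shINCA1. PARP1 was nearest to RPS15A, LRRC59 and C1QBP (0.02 each) and PARP2 to RPS6KA3, SCP2 and KRIT1 (0.05 each).

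Of the 11 other PARP family genes, 10 were tested. With IFNγ 5 rose and 1 fell in shCTRL, and 4 rose and 0 fell in shINCA1. Of all tested genes 9.72% were called higher and 7.51% lower in shCTRL, and 6.13% and 2.95% in shINCA1. ZC3HAV1, the antiviral zinc-finger protein also called PARP13, rose by 1.88 ± 0.04 (SE, log2, adjusted p = 5.56e-12) in shCTRL and 1.66 ± 0.04 (adjusted p = 1.96e-11) in shINCA1. PARP8 rose by 1.28 ± 0.06 and 1.14 ± 0.06 (adjusted p = 2.04e-08 and 9.85e-08). PARP3 rose by 0.44 ± 0.08 in shINCA1 (adjusted p = 0.0041). In shCTRL PARP4, the vault PARP, rose by 0.24 ± 0.03 and TNKS2, a tankyrase, by 0.19 ± 0.04. The call of PARP11 in shCTRL (0.24 ± 0.06, adjusted p = 0.0153) was lost without untreated shCTRL library 2 or IFNγ-treated shCTRL library 1 or 3 (up to 0.0780). That of PARP4 in shINCA1 (adjusted p = 0.0181) was lost with upper-quartile factors (0.0531) and without untreated shINCA1 library 1 (0.0825) or IFNγ-treated shINCA1 library 2 (0.0558) or 3 (0.114). PARP16, the endoplasmic reticulum member, was the gene that fell in shCTRL (-0.24 ± 0.07, adjusted p = 0.0229). Its call was lost without untreated shCTRL library 3 (adjusted p = 0.0547) or IFNγ-treated shCTRL library 3 (0.0969). The median of the 10 was 0.20 in shCTRL and 0.05 in shINCA1, beside -0.01 and 0.00 over all tested genes.

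Between the lines 8 of these 10 family genes passed in each condition, beside 56.9% untreated and 58.9% with IFNγ of all tested genes. Of these calls 4 were higher and 4 lower untreated, and 3 higher and 5 lower with IFNγ. In the fit of the compared groups alone the untreated calls of PARP8 (-0.19, adjusted p = 0.0667) and TNKS2 (-0.10, 0.0777) were lost. That of TNKS2 was also lost with no filter on low counts (0.0584) or a filter of 5 CPM (0.0606), and that of PARP8 in DESeq2 (0.0606). Omission of 1 untreated library ended the untreated calls of PARP8 (shCTRL 1 or shINCA1 2), TNKS2 (shCTRL 3 or shINCA1 3) and PARP11 (shCTRL 1 or 2, shINCA1 1 or 3), with adjusted p of 0.0527 to 0.141. ZC3HAV1 was lower in shINCA1 (-0.55 ± 0.04 untreated and -0.77 ± 0.04 with IFNγ). PARP6 (0.41 ± 0.04), PARP16 (0.55 ± 0.06) and TIPARP (0.53 ± 0.06), also known as PARP7 and a target of the aryl hydrocarbon receptor, were higher in untreated shINCA1. In the difference of the responses 0 of the 10 passed in edgeR. The nearest was ZC3HAV1 (-0.22 ± 0.05, adjusted p = 0.0583), which passed with the DESeq2 Wald test (-0.24, adjusted p = 0.00159), with a filter of 5 CPM (-0.24, 0.0371) and with the replicate block (-0.22, 0.0323). At an unadjusted p below 0.05, 2 of the 10 passed in edgeR.

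**Figure D5:**
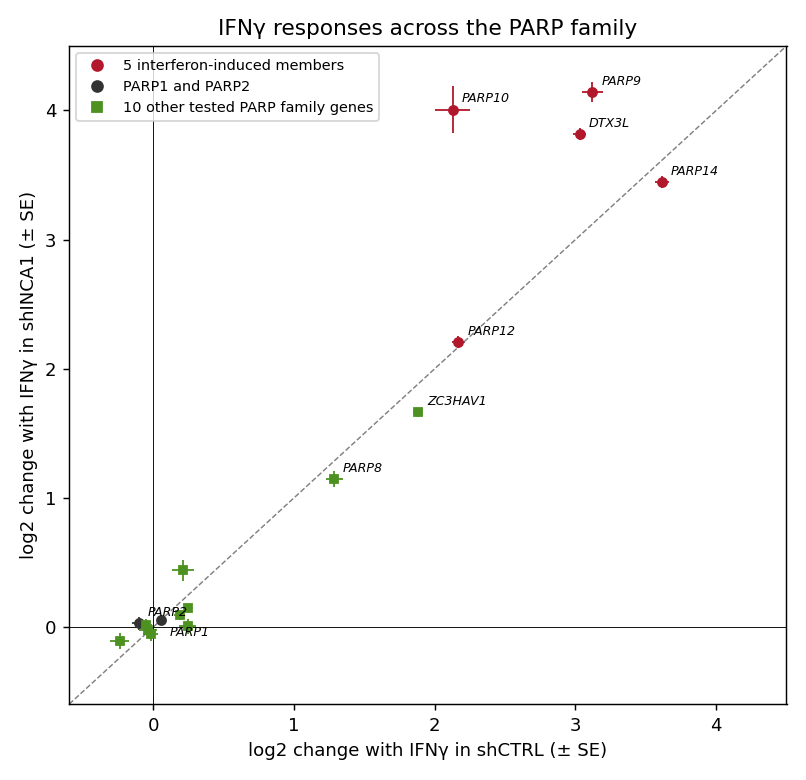
Log2 change with IFNγ in shINCA1 (y axis) against shCTRL (x axis), with SE on both axes, for the 5 induced genes (red), PARP1 and PARP2 (black) and the 10 other tested family genes (green). PARP10, PARP9 and DTX3L lie above the dashed line of equal change, ZC3HAV1 and PARP8 lie beside it at smaller changes, and most of the family lies near 0.

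Of 9 genes for the removal of ADP-ribose 7 were tested, and 1 rose with IFNγ in each line. Genes called higher made up 9.72% (shCTRL) and 6.13% (shINCA1) of all tested genes. The gene that rose was ADPRHL2, a serine ADP-ribosylhydrolase also called ARH3 (0.52 ± 0.04 in shCTRL and 0.48 ± 0.04 in shINCA1, adjusted p = 2.27e-06 and 8.39e-06). ADPRH was at 0 in all libraries. Between the lines 2 of the 7 passed untreated and 3 with IFNγ, where 56.9% and 58.9% of all tested genes passed. ENPP1, a pyrophosphatase, was lower in shINCA1 (-0.99 ± 0.08 in both conditions), as was OARD1 (-0.45 ± 0.06 and -0.54 ± 0.06). The call of PARG, the main poly(ADP-ribose) glycohydrolase, with IFNγ (0.11 ± 0.04, adjusted p = 0.0425) was lost without untreated shCTRL library 2 or 3, IFNγ-treated shCTRL library 1 or 3 or any of the IFNγ-treated shINCA1 libraries (adjusted p = 0.0510 to 0.149).

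Of 7 ADP-ribose cofactors and readers, which include HPF1, the partner of PARP1 for serine targets, 0 passed with IFNγ in either line, in edgeR at an adjusted or an unadjusted p of 0.05 or in DESeq2. Over all tested genes 17.2% passed with IFNγ in shCTRL and 9.08% in shINCA1 (edgeR, adjusted p). Between the lines 4 of them passed untreated and 5 with IFNγ (56.9% and 58.9% of all tested genes), among them the macroH2A gene H2AFY2 (0.78 ± 0.06 untreated), the chromatin remodeller CHD1L (-0.28 ± 0.03) and the ubiquitin ligase RNF146 (-0.48 ± 0.07). Of the 4 other Deltex ligases 0 passed with IFNγ in either line, again in edgeR at an adjusted or an unadjusted p of 0.05 and in DESeq2. The same 17.2% and 9.08% of all tested genes stand beside this. Between the lines 2 of the 4 passed in each condition (56.9% and 58.9% of all tested genes), with DTX3 lower (-0.27 ± 0.06) and DTX2 higher (0.23 ± 0.05) in untreated shINCA1. With IFNγ the call of DTX2 (0.15 ± 0.05, adjusted p = 0.0327) was lost without IFNγ-treated shCTRL library 2 (0.0777) or 3 (0.0757) or IFNγ-treated shINCA1 library 1 (0.104) or 2 (0.0682), and DTX1 passed without IFNγ-treated shINCA1 library 1 (-2.63, adjusted p = 0.0412).

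Of 18 genes of NAD+ metabolism, which supply or consume the donor of ADP-ribose, 13 were tested and NMRK2, HAAO and ACMSD were at 0 in all libraries. With IFNγ 2 rose and 1 fell in each line. Over all tested genes 9.72% were called higher and 7.51% lower in shCTRL, and 6.13% and 2.95% in shINCA1. NNMT, a nicotinamide methyltransferase, rose by 1.76 ± 0.07 in shCTRL and 2.63 ± 0.08 in shINCA1 (adjusted p = 3.82e-09 and 2.98e-10). NAMPT, the rate-limiting enzyme of NAD+ salvage, rose by 0.83 ± 0.05 and 0.46 ± 0.05 (adjusted p = 1.37e-07 and 4.96e-05). The genes that fell were NADK2 in shCTRL and NMNAT1 in shINCA1. The call of NADK2 (-0.18, adjusted p = 0.0255) was lost without untreated shCTRL library 2 (0.0674) or IFNγ-treated shCTRL library 1 (0.0564) and in the fit of the compared groups alone (0.0760). That of NMNAT1 (-0.30, adjusted p = 0.0387) was lost without untreated shCTRL library 1, IFNγ-treated shCTRL library 2, untreated shINCA1 library 2 or 3, or IFNγ-treated shINCA1 library 1 or 2 (0.0517 to 0.150) and in the fit of the compared groups alone (0.0793). Between the lines 7 of the 13 passed untreated and 8 with IFNγ, beside 56.9% and 58.9% of all tested genes. NNMT (-3.04 ± 0.08 untreated) and KYNU (-2.73 ± 0.33), an enzyme of tryptophan breakdown, were lower in shINCA1, and SARM1 (0.70 ± 0.08), an NAD+ hydrolase, was higher.

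All 11 genes of single-strand break repair, the setting in which PARP1 and PARP2 are best known, were tested. TDP1 fell in shCTRL (-0.14 ± 0.04, adjusted p = 0.0377), and 0 passed in shINCA1 in edgeR (1 at an unadjusted p below 0.05, and 1, POLB, in DESeq2). Over all tested genes 17.2% passed with IFNγ in shCTRL and 9.08% in shINCA1. The call of TDP1 was lost without untreated shCTRL library 1 or 2, IFNγ-treated shCTRL library 1 or 3 or untreated shINCA1 library 2 (adjusted p = 0.0558 to 0.116). It was also lost with the replicate block (0.0637), in the fit of the compared groups alone (0.0931) and with no filter on low counts (0.0860). POLB passed in shCTRL without untreated shCTRL library 1 (-0.23, adjusted p = 0.0445). With upper-quartile factors POLB (-0.21, adjusted p = 0.0399) and APEX1 (-0.09, 0.0462) fell in shCTRL as well. In shINCA1 POLB passed in edgeR with upper-quartile factors (-0.24, adjusted p = 0.0374), with a filter of 5 CPM (-0.22, 0.0458) and without untreated shINCA1 library 1 (-0.26, 0.0488). Against 56.9% and 58.9% of all tested genes, 9 of the 11 passed between the lines untreated and 7 with IFNγ, among them TDP1 (0.62 ± 0.04 untreated), TDP2 (-0.73 ± 0.05), LIG1 (-0.68 ± 0.06) and XRCC1 (-0.38 ± 0.04). Under 20 alternatives the untreated calls of APTX, APEX1 and POLB were lost in 12, 4 and 3. With IFNγ the call of POLB was lost in 10, and APEX1, which was not called, passed in 3.

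Of 9 genes of IFNγ signalling, all tested, 6 rose in shCTRL, 5 rose in shINCA1 and 0 fell. Over all tested genes 9.72% were called higher and 7.51% lower in shCTRL, and 6.13% and 2.95% in shINCA1. IFNGR1, IFNGR2 and JAK1 passed in neither line. The sixth in shCTRL was STAT3, a transcription factor (0.77 ± 0.23, adjusted p = 0.0423). Its call was lost with the replicate block (0.0792), in the fit of the compared groups alone (0.0646) and without any 1 of the 12 libraries (0.0510 to 0.140) except IFNγ-treated shCTRL library 3 and untreated shINCA1 library 2. IRF1, an early interferon-induced transcription factor, rose by 5.96 ± 0.06 and 5.75 ± 0.06, and IRF9, a DNA-binding subunit of an interferon-activated complex, by 2.57 ± 0.10 and 3.10 ± 0.11. Between the lines 7 of the 9 passed untreated and 8 with IFNγ, all lower in shINCA1, beside 29.5% and 30.2% of all tested genes called lower. The receptor gene IFNGR1 was lower (-0.80 ± 0.05 untreated and -0.65 ± 0.05 with IFNγ, log2). JAK2 rose by 1.94 ± 0.08 in shCTRL and 0.90 ± 0.08 in shINCA1, a difference of -1.04 ± 0.11 (adjusted p = 0.000527), which has the opposite sign to those of PARP9, DTX3L and PARP10. In DESeq2 the differences of IRF1 (-0.231, adjusted p = 0.00543) and IRF9 (0.505, adjusted p = 0.0188) passed as well, with opposite signs.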

How the data were processed

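The authors deposited 1 table of estimated counts (expected counts), made as whole numbers per gene symbol and not scaled between libraries. FastQC, Trimmomatic, HISAT2, StringTie and the genome build hg19 were used, per the submitters' processing notes. Which versions, annotation and strand rule the counting followed was not given in the sources used here. A stranded messenger RNA kit was used, per the labels' protocols.

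Counts were fitted in edgeR 4.0.16 (R 4.3.3): filterByExpr (15769 of 27685 genes), TMM factors, and 2-sided quasi-likelihood tests with 1 coefficient per group over all 12 libraries, adjusted by Benjamini-Hochberg over all tested genes at 0.05. The common biological coefficient of variation was 10.6%. The fit was tested on simulated data. At a true log2 change of 0.5 it recovered 28% of changed genes in the difference of responses, and 72% at 1. In the other comparisons it recovered 60% to 70% at 0.5. A gene that did not pass in the difference may therefore still differ. Named genes were the 7 members, up to 4 genes by p of each list, genes at 0, the 3 genes of most similar pattern and 10 neighbours on each side. Some genes that this rule names are not reported here. Genes whose call hung on a library were named after their values were seen. Members and lists were chosen with earlier results of these data known. Neighbour order and promoter sequences come from RefSeq on GRCh38.p14 (97.8% of tested symbols matched) and transcript lengths from GENCODE 44. Samples were grouped by title and treatment. Alternatives were other scaling factors and filters, the DESeq2 1.42.0 Wald test, a replicate block, a fit of the compared groups alone, omission of each library, the neighbours' median subtracted and an adjusted p of 0.01.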

Additional observations from a re-analysis of the deposited data

Results flagged for a closer look

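The response to IFNγ differed between the lines, by the test of the difference itself in edgeR, for 6 of the genes followed. These were 3 of the 5 induced genes, 2 of 13 tested genes of NAD+ metabolism and 1 of 9 of IFNγ signalling. Of PARP1 and PARP2, 0 passed. In the other lists 0 of 10 (PARP family), 7 (removal), 7 (cofactors and readers), 4 (Deltex) and 11 (break repair) tested genes passed. Over all 15769 tested genes 1.71% passed in either direction. The log2 response of PARP9 was larger in shINCA1 by 1.02, that of DTX3L by 0.79 and that of PARP10 by 1.88. Among the listed genes the response of NNMT was larger in shINCA1 by 0.86, with mean levels of 49.2 and 167 CPM in shCTRL and 5.98 and 37.0 CPM in shINCA1. The response of JAK2 was smaller in shINCA1, by -1.04, with 15.2 and 58.3 CPM in shCTRL and 11.4 and 21.2 CPM in shINCA1. The response of NAMPT was smaller by -0.37 (adjusted p = 0.0186), with 106 and 187 CPM in shCTRL and 108 and 149 CPM in shINCA1. The call of NAMPT was lost without IFNγ-treated shCTRL library 1 (adjusted p = 0.0610) or 2 (0.0659), untreated shINCA1 library 3 (0.0582) or IFNγ-treated shINCA1 library 2 (0.0679).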

How the results depend on the processing

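The 5 induced genes kept their direction and their side of the threshold in all 5 comparisons under all 20 alternatives with a test (19 for the difference of responses). The IFNγ response of PARP10 ranged from 3.83 to 4.31 in shINCA1 and its difference of responses from 1.71 to 2.20. With upper-quartile factors the IFNγ response of PARP2 in shINCA1 was -0.006 and the difference of responses of PARP1 was 0.016. The former was -0.016 to 0.052 when a library was left out (-0.016 without IFNγ-treated shINCA1 library 3), and the latter was 0.001 to 0.023 in the 9 fits without 1 library that changed its sign (-0.039 at the lowest). With the replicate block no call of the 7 genes changed, and the counts of genes passing stayed within 1.5 times. The block changed the call of the PARP9 to DTX3L ratio with IFNγ (0.211, exact permutation p = 0.0625). Deviations from group means correlated at -0.036 to 0.067 between same-numbered libraries of different groups (median 0.0175). For other numbers they correlated at -0.070 to 0.051 (median -0.0055). The labels state no batch, and these values cannot tell whether a number marks a shared culture or batch. Leaving out 1 library gave 0.153 to 0.247 for the ratio with IFNγ and -0.211 to -0.121 for the ratio between the lines.

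At an adjusted p of 0.01, 1703 genes in place of 2716 passed with IFNγ in shCTRL, 869 in place of 1432 in shINCA1 and 113 in place of 270 in the difference, and the DESeq2 Wald test called 509 in the difference. Leaving out 1 library gave 2128 to 2748 genes with IFNγ in shCTRL, 1037 to 1435 in shINCA1, 8250 to 8978 between the untreated lines, 8566 to 9355 between the lines with IFNγ and 174 to 235 in the difference. The lowest values in the difference were 174 without untreated shINCA1 library 3 and 179 without IFNγ-treated shCTRL library 2. Upper-quartile factors moved the genes higher and lower with IFNγ from 1532 and 1184 to 1201 and 1970 in shCTRL (56.4% to 37.9% higher) and from 967 and 465 to 815 and 733 in shINCA1 (67.5% to 52.6%). The cause was not tested. The depth limits mainly PARP10 in untreated shINCA1, with 12 to 19 estimated counts per library.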
